A study of Rattus norvegicus with 30 samples.

Results

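The potassium channel genes of the rat hippocampus were followed after kainate, as all probe sets that the array platform's annotation assigns to exactly 1 gene whose symbol starts with Kcn. The rule found 82 probe sets for 54 genes, among 8740 probe sets that are not controls and 4736 genes with 1 symbol. No expression value entered the rule. Where a gene had several probe sets, the one with the highest mean log2 signal over the 30 arrays stood for it, and 39 of the 54 genes were bright enough to be tested. The 54 genes comprise 15 inward rectifiers, 8 channels of the EAG, ERG and ELK group, 6 Kv1 channels, 5 silent Kv subunits, 5 calcium- or sodium-activated channel subunits, 3 Kv3 channels, 3 Kv beta subunits, 3 two-pore channels, 2 Kv4 and 2 Kv7 channels, 1 Kv2 channel and 1 KCNE subunit.

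Potassium channels let potassium ions leave the cell along their gradient and so bring the membrane back towards rest after an action potential. Voltage-gated channels (Kv1 to Kv4, Kv7 and the EAG, ERG and ELK group) open on depolarization, inward rectifiers (Kcnj) hold the resting potential and in astrocytes take up potassium released by firing neurons, and two-pore channels (Kcnk) carry a background leak. Loss of function of several of these channels causes epilepsy in humans or rodents.

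The study measured total RNA of the hippocampus on Affymetrix arrays, 1 array per sample, in rats given kainate, a glutamate analogue that brings on limbic seizures, or phosphate-buffered saline (PBS). Tissue was taken 1, 6, 24, 72 or 240 h after treatment, which gives 10 groups (kainate and PBS at each time) of 3 arrays and 30 arrays in all. The strain, sex and age of the rats, the dose and route of kainate and whether animals were pooled are not given in the sources used here. Replicates carry numbers in the labels with no word on what a replicate is, so p-values measure only the spread between these arrays. In whole tissue, fewer cells of a type and less RNA per cell cannot be told apart.

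Signals are given on the linear scale of the deposited values, after each array was scaled to a common trimmed mean. A change is the log2 of kainate minus the log2 of PBS with its standard error (SE). A gene passed when its limma adjusted p (Benjamini-Hochberg over 6303 tested probe sets) was under 0.05, and the word "lower" or "higher" in a count refers to kainate against PBS of the same time. Signals of different probe sets were not set against each other, since their brightness depends on the probes. The 30 arrays had trimmed means between 150.1 and 150.2. The arrays of 6 and 72 h were taken as 1 set and those of 1, 24 and 240 h as another. How far the sets differ as a whole was not tested. Among the PBS arrays the 39 genes were higher at 6 and 72 h by a median log2 of 0.18, against 0.09 over all tested probe sets. The genes ranged from -0.54 for Kcnj12 to 1.23 for Kcnj10. Lower at 6 and 72 h were 14 of the 39 genes and 2574 of the 6303 probe sets. Each change below is therefore taken against the PBS group of its own time. The median SD of log2 signal within a group was 0.34 for the 39 genes, from 0.13 for Kcnk1 to 0.84 for Kcna5, and 0.31 over all tested probe sets.

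Kcnd3 and Kcnh1 were above PBS at 6 h, without passing, and below it at 24 h. Kcnab1 lay the other way at both times and passed at 24 h only. Kcnj15 had the largest fold among genes that passed at 24 h. The start-site sequences of these 4 genes, all of which passed at 24 h, are shown for that reason. They come from RefSeq, build GRCr8, and run from 250 bases before to 50 bases after the annotated start, 5′ to 3′ on the strand of the gene, which is the plus strand for all 4. Capitals mark the letters of a GC box (GGGCGG) in Kcnd3 and Kcnh1 and of the core of a cyclic AMP response element (TGACG) in Kcnab1 and Kcnj15, on either strand.
Kcnd3: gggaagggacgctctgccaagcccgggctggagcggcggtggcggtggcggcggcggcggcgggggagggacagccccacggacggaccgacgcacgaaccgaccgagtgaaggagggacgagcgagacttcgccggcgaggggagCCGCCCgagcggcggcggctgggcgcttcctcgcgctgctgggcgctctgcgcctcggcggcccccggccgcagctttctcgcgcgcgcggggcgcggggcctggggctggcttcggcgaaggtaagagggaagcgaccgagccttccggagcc
Kcnh1: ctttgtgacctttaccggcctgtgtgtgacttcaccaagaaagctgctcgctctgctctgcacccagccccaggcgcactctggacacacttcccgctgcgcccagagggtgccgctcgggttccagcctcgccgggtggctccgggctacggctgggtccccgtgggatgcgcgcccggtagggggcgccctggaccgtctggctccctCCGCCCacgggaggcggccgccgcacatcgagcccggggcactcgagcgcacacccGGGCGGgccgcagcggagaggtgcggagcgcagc
Kcnab1: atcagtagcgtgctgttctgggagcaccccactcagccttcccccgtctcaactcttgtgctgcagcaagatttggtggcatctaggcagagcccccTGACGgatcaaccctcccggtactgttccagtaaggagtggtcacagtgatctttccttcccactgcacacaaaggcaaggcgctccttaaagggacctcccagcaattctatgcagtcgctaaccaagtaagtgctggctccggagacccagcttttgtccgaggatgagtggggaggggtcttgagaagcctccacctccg
Kcnj15: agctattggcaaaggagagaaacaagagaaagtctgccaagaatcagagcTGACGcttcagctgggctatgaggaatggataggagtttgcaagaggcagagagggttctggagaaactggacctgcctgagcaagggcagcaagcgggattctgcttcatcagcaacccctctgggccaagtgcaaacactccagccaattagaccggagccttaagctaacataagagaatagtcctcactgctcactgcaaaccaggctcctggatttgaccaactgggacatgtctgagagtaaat
The Kcnd3 window (chr2:195626066-195626365) is 77.7% G and C and holds 48 CpG pairs and 1 GC box. The Kcnh1 window (chr13:106252966-106253265) is 72.7% G and C, with 32 CpG pairs and 2 GC boxes. The Kcnab1 window (chr2:151614301-151614600) is 56.7% G and C with 9 CpG pairs, and the Kcnj15 window (chr11:48070700-48070999) is 50.3% G and C with 3 CpG pairs. Each of the last pair holds TGACG once. The windows of Kcnc2, which passed for its mean effect, hold neither a GC box nor TGACG, nor any other motif counted below. They are not shown. The table of start sites matched 40 of the 54 genes with 44 entries; Kcnk1 and Kcnq3 have none. The motifs were searched on both strands of all 33469 windows of this length, and TGACG also counts where it lies within TGACGTCA. A GC box was in 22 of the 44 entries and in 33.1% of all windows. TGACG was in 9 of 44 (20.5%) and in 21.2% of all, TGANTCA (AP-1) in 3 (6.82%) and 7.33%, GCGNGGGCG (Egr) in 4 (9.09%) and 4.98%, and the full TGACGTCA in 0 and 1.83%. A match describes the letters of a window and not a factor's binding there.

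The kainate effect on the potassium channel genes was small in number of calls at every time and was most visible at 24 h. At 24 h Kcnq3, Kcnd3, Kcnh1 and Kcnj15 fell and Kcnab1 rose, while at 6 h Kcnk1 alone rose. At 1, 72 and 240 h no potassium channel gene passed. These calls were about as frequent as among all probe sets. At 24 h 5 of the 39 genes passed (12.8%), against 11.3% of all tested probe sets, with 4 lower (10.3%) against 6.3% and 1 higher against 5.03%. At 6 h 1 of 39 passed, higher, against 3.93% of all in either direction and 3.24% higher. Fitted on the 6 arrays of 24 h alone 1 of the 5 genes passed (Kcnj15), fitted on the arrays of 1, 24 and 240 h 1 passed (Kcnq3), and Kcnk1 did not pass on the arrays of 6 h alone (adjusted p 0.104). The background was 1.09% at 1 h and 0.0476% at both 72 and 240 h. At an unadjusted p under 0.05 the potassium channel genes numbered 6, 5, 10, 3 and 6 of 39 at 1, 6, 24, 72 and 240 h, with backgrounds of 9.68%, 14.7%, 26.4%, 6.33% and 12.2%.

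**Figure D1:**
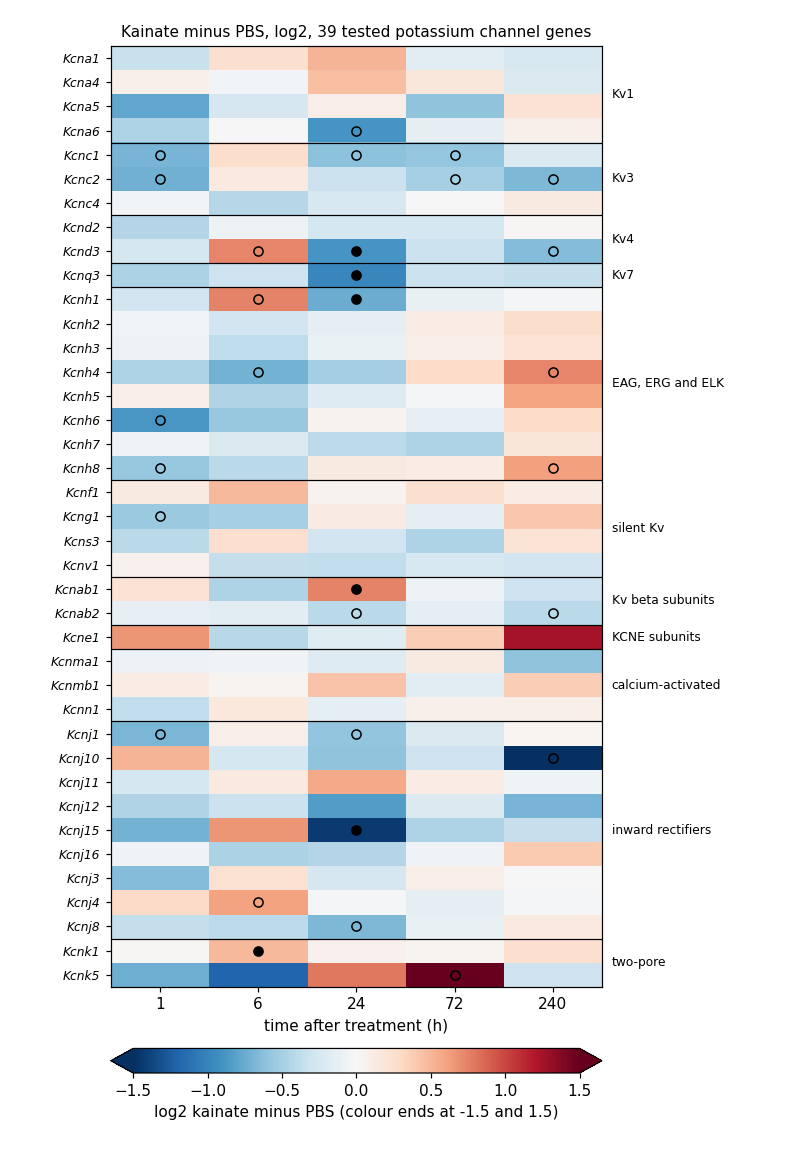
Heat map of the change (log2 kainate minus PBS, colour, ends at -1.5 and 1.5) of the 39 tested potassium channel genes (rows, by subfamily) at 1, 6, 24, 72 and 240 h (columns). Filled circles mark genes that passed and open circles those with an unadjusted p under 0.05; the filled circles are Kcnk1 at 6 h and Kcnq3, Kcnd3, Kcnh1, Kcnj15 and Kcnab1 at 24 h.

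The A-type channel gene Kcnd3 and the ether-a-go-go channel gene Kcnh1 were both above PBS at 6 h and below it at 24 h. Of these changes only the falls at 24 h passed. Kcnd3 encodes a Kv4 subunit of the rapidly inactivating current that limits back-propagating action potentials in dendrites. Its signals at 6 h were 72.2, 53.5 and 56.0 in the PBS arrays and 94.3, 111 and 95.9 after kainate. All kainate arrays lay above all PBS arrays, but the change of 0.74 ± 0.23 (SE) did not pass (adjusted p 0.0735). The PBS mean of 6 h was the lowest of the 5 times, at a log2 signal of 5.91 against 6.26 to 6.66. At 24 h the PBS arrays read 102, 64.9 and 67.4 and the kainate arrays 40.9, 48.9 and 35.3. The order was turned, again with no overlap, and the mean fell from 78.2 ± 20.9 to 41.7 ± 6.82 (SD, n = 3 each). This is 1.85-fold lower (log2 -0.89 ± 0.23, adjusted p 0.0125). The difference between the effects at 24 and 6 h was -1.63 ± 0.32 and passed (adjusted p 0.0022). The arrays of 6 and 24 h belong to different sets of arrays. In this and every other difference between 6 and 24 h the time and the set therefore cannot be told apart. At 240 h the groups did not overlap either, with 108, 86.3 and 111 in PBS and 48.4, 85.4 and 64.3 after kainate, at a change of -0.65 that did not pass (adjusted p 0.277). The changes at 1 and 72 h were -0.26 and -0.32, within overlapping groups. The second tested probe set of Kcnd3 gave 0.20 at 6 h and -0.41 at 24 h (adjusted p 0.535). With the mean of both probe sets the fall at 24 h was -0.65 (adjusted p 0.09) and the difference from 6 to 24 h -1.12 (adjusted p 0.0597). Without PBS replicate 1 or kainate replicate 3 of 24 h the fall was -0.68 and -0.78 and did not pass (adjusted p 0.0803 and 0.0743).

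Kcnh1 encodes the ether-a-go-go channel, a slowly activating voltage-gated channel of neurons. At 6 h it read 123, 64.7 and 102 in PBS and 153, 148 and 169 after kainate, with no overlap and a change of 0.75 ± 0.23 (adjusted p 0.0676). Here too the PBS mean of 6 h was the lowest of the 5 times, at a log2 signal of 6.54 against 6.81 to 7.07. At 24 h Kcnh1 read 121, 99.9 and 117 in PBS and 64.5, 82.8 and 56.7 after kainate. The kainate arrays were now all the lower ones, and the mean fell from 112 ± 11.1 to 68.0 ± 13.4 (SD), 1.67-fold (log2 -0.74 ± 0.23, adjusted p 0.0359). The effect at 24 h minus that at 6 h was -1.48 ± 0.32 (adjusted p 0.00537), and it passed with each of the 12 arrays of these times left out in turn. At 1, 72 and 240 h the changes were -0.29, -0.11 and -0.02. The fall at 24 h taken alone passed in 2 of 6 such fits: it was lost without PBS replicate 1 or 3 or kainate replicate 1 or 3 (adjusted p 0.0868 to 0.165), and under quantile normalization (adjusted p 0.0524). Both genes also passed the F test that the kainate effect differs between the 5 times (adjusted p 0.0116 for Kcnd3 and 0.0379 for Kcnh1). It was passed by 2 of 39 genes (5.13%), against 6.62% of all tested probe sets. With each of the 30 arrays left out in turn, Kcnd3 passed this F test in all 30 fits and Kcnh1 in 20. Kcnh1 did not pass it without the filter on low values (adjusted p 0.0538), nor Kcnd3 with the mean of its probe sets (adjusted p 0.155). The other 7 genes of the EAG, ERG and ELK group had changes of -0.70 to -0.22 at 6 h and of 0.19 to 0.73 at 240 h, and none of them passed at any time.

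**Figure D2:**
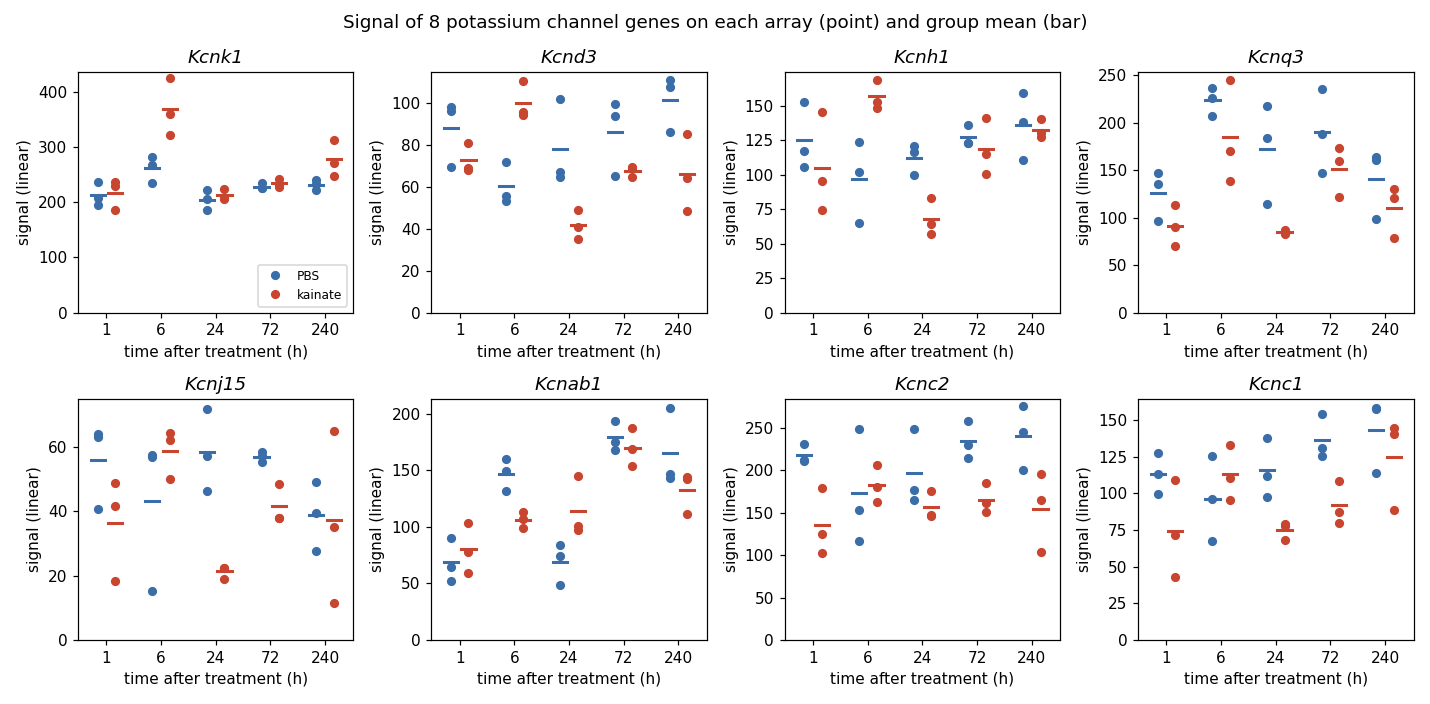
Signal (vertical axis, linear scale from 0) of 8 potassium channel genes on each array (points) with group means (bars) at 1, 6, 24, 72 and 240 h, PBS in blue and kainate in red. Kcnd3 and Kcnh1 show kainate arrays above all PBS arrays at 6 h and below all of them at 24 h; Kcnab1 shows the opposite at the same times.

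Kcnab1 was the 1 gene that passed with a rise at 24 h. It encodes a cytoplasmic beta subunit that binds Kv1 channels and gives them fast inactivation. At 6 h its signals were 149, 131 and 160.0 in PBS and 107, 99.0 and 113 after kainate, all lower, at a change of -0.46 ± 0.23 (adjusted p 0.352). At 24 h they were 48.2, 74.2 and 84.4 in PBS and 101, 97.3 and 145 after kainate, all higher. The mean went from 68.9 ± 18.7 to 114 ± 26.9 (SD), 1.68-fold (log2 0.75 ± 0.23, adjusted p 0.0347). The effect at 24 h minus that at 6 h was 1.21 ± 0.33 (adjusted p 0.0266). That difference was lost without PBS replicate 1 or kainate replicate 3 of 24 h, or without PBS replicate 3 or kainate replicate 1 or 2 of 6 h (adjusted p 0.0519 to 0.0967). Its PBS level itself differed between times, with means of 69.0, 147, 68.9, 179 and 165 at 1, 6, 24, 72 and 240 h, a range wider than the kainate effect. The kainate mean at 24 h of 114 was below the PBS mean of 3 of the 5 times. Without PBS replicate 1 of 24 h the rise was 0.51 (adjusted p 0.188), without kainate replicate 3 it was 0.56 (adjusted p 0.199), and without PBS replicate 2 it was 0.82 (adjusted p 0.0511). Of the 39 genes 3 passed for a change from 6 to 24 h (7.69%), Kcnab1 upwards and Kcnd3 and Kcnh1 downwards. Among all tested probe sets the share was 5.24%, with 2.17% upwards and 3.06% downwards. At an unadjusted p under 0.05 it was 7 of 39 genes against 20% of all probe sets. For the change from 24 to 240 h 0 of 39 passed in limma, against 5.65% of all, and 5 of 39 had an unadjusted p under 0.05, against 21.6%; Kcnab1 was nearest at -1.05 (adjusted p 0.0534).

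The Kv1 pore subunits that Kcnab1 partners did not pass at 24 h. Kcna1, a dendrotoxin-sensitive axonal channel in which mutations cause episodic ataxia, read 75.99, 146 and 102 in PBS and 231, 115 and 124 after kainate. The groups overlapped, and the change was 0.51 with a 95% interval of -0.01 to 1.04. Kcna4, Kcna5 and Kcna6 changed by 0.45, 0.10 and -0.89 with adjusted p from 0.19 to 0.94. The second tested probe set of Kcna4 was at 1.17, without overlap and without passing (adjusted p 0.0726). At 1 and 72 h Kcna5 was at -0.78 and -0.60, among the 2 largest falls of the 39 tested genes at each of these times. Neither fall passed (adjusted p 0.747 and 0.948). A second probe set of Kcna1 did pass at 24 h, with 48.8, 35.6 and 40.4 in PBS and 123, 55.01 and 54.7 after kainate. Those groups did not overlap, and the rise was 1.74-fold (log2 0.80 ± 0.26, adjusted p 0.0451), with 1 kainate array well above the others. On that probe set the kainate effect was -0.59 at 240 h, and the change from 24 to 240 h of -1.39 ± 0.37 passed (adjusted p 0.0243). The probe set that stands for Kcna1 gave -0.75 for the same change and did not pass (adjusted p 0.23). Kcnab2, the other tested beta subunit, was at -0.12, -0.17, -0.41, -0.15 and -0.41, and its mean effect of -0.25 did not pass (adjusted p 0.0825). Its second probe set was at -0.46, -0.15, -0.29, -0.23 and 0.27, the last without overlap and with none passing. With the mean of both probe sets Kcnab2 did pass for the mean effect.

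Kcnq3 was below PBS on average at every time and fell at 24 h. Kcnq3 encodes a subunit of the channel that carries the M-current, a slow potassium current that is switched off by muscarinic receptors and restrains repetitive firing. At 24 h its signals were 115, 217 and 184 in PBS and 84.1, 82.9 and 86.9 after kainate. The kainate arrays lay close together and below all PBS arrays, and the mean fell from 172 ± 52.3 to 84.6 ± 2.06 (SD), 1.97-fold (log2 -0.97 ± 0.26, adjusted p 0.0157). The fall was lost without PBS replicate 2 or 3 (adjusted p 0.0885 and 0.0625). At 1, 6, 72 and 240 h the change was -0.47, -0.31, -0.32 and -0.35, none of which passed. Averaged over the 5 times the effect was -0.49 ± 0.12, 1.40-fold lower (adjusted p 0.0116), and it passed with each of the 30 arrays left out in turn. The test that the effect differs between times did not pass for Kcnq3 (adjusted p 0.58).

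The Kv3 gene Kcnc2 was the other gene with a lower mean over the times. Kv3 channels repolarize quickly and let interneurons fire at high rates. At 1 h Kcnc2 read 212, 211 and 231 in PBS and 103, 125 and 179 after kainate. At 72 h it read 215, 230 and 258 in PBS against 151, 185 and 161, and at 240 h 275, 245 and 200.3 against 104, 196 and 165. On this probe set every kainate array was below every PBS array at these 3 times, with changes of -0.72, -0.50 and -0.67. None passed alone (adjusted p 0.217, 0.776 and 0.284). At 6 and 24 h the groups overlapped, with changes of 0.15 and -0.32. The mean effect was -0.41 ± 0.11, 1.33-fold lower (adjusted p 0.0217). It rested on this probe set: the 2 other tested probe sets of Kcnc2 gave mean effects of 0.12 and 0.06. The mean of all 3 gave an adjusted p of 0.747. At 240 h the 2 other probe sets were at 1.03 and 0.52, opposite in sign to the first. On the one at 1.03 the groups did not overlap, with 77.7, 87.7 and 36.6 in PBS and 136, 153 and 102 after kainate. That rise did not pass (adjusted p 0.165). Kcnc1, the related Kv3 gene, changed by -0.70, 0.27, -0.61, -0.58 and -0.22, and its mean effect of -0.37 ± 0.12 did not pass (adjusted p 0.0733). Of the 39 genes, 2 passed for the mean effect, both lower (5.13%), while 4.41% of all tested probe sets passed, 2.97% higher and 1.44% lower. In the F test for an effect at any time 4 of 39 passed (10.3%), Kcnd3, Kcnc2, Kcnh1 and Kcnq3, against 9.33% of all. With each of the 30 arrays left out in turn, Kcnd3 passed that test in all 30 fits, Kcnc2 in 14, Kcnh1 in 11 and Kcnq3 in 8.

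Kcnd2, the Kv4 partner of Kcnd3 and the main A-type subunit of pyramidal cell dendrites, changed by -0.44, -0.07, -0.26, -0.26 and 0.02 and passed at no time. At 24 h its 95% interval was -0.85 to 0.33, and its difference from Kcnd3 was not tested. The 4 silent subunits tested (Kcnf1, Kcng1, Kcns3 and Kcnv1), which modify Kv2 channels without forming channels of their own, changed by -0.56 to 0.48 over the 5 times with no call. The largest fall at 1 h was that of the ERG gene Kcnh6 at -0.88 (adjusted p 0.31). The ELK gene Kcnh4 went from -0.70 at 6 h (adjusted p 0.32) to 0.73 at 240 h (adjusted p 0.374), without overlap at either time and without passing.

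Among the inward rectifiers Kcnj15 fell at 24 h, with signals of 57.3, 46.2 and 71.9 in PBS and 22.5, 18.9 and 22.5 after kainate. The groups were far apart, and the mean went from 58.5 ± 12.9 to 21.3 ± 2.08 (SD), 2.71-fold lower (log2 -1.44 ± 0.47). The adjusted p was 0.047, and it ranged from 0.0633 to 0.147 with each of the 6 arrays left out in turn. Kcnj15 also did not pass without the filter on low values (adjusted p 0.0832) or without the intensity trend (0.058). The effect was 0.67 at 6 h, and the change from 6 to 24 h of -2.11 did not pass (adjusted p 0.062). Of the 9 inward rectifiers tested 8 were below 0 at 24 h, with a median of -0.59, and 1 passed. Among all tested probe sets 54.1% were below 0 and 11.3% passed at that time. Kcnj12, a classical strong rectifier, was at -0.83 with no overlap (adjusted p 0.2). Kcnj11, the pore subunit of the ATP-sensitive channel, was the exception among the 9 at 0.57 (adjusted p 0.22). The median was the value of Kcnj1, whose other tested probe set was at 0.48. At 240 h Kcnj12 had 1 of the 2 largest falls of the members, without passing (adjusted p 0.526). With each of its 6 arrays left out in turn that fall lay between -1.03 and -0.53.

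Kcnj10 encodes the main astrocytic inward rectifier, which carries potassium uptake. At 240 h it read 53.4, 48.4 and 30.8 in PBS and 8.09, 27.1 and 5.44 after kainate, and 2 of the 3 kainate arrays were under the floor of 10.95 that was applied to low signals. The groups did not overlap, and the change of -1.54 ± 0.57 did not pass (adjusted p 0.302). The second probe set gave 35.5, 29.98 and 34.3 in PBS and 13.3, 12.5 and 8.69 after kainate at the same time. Again all kainate arrays were lower, at -1.44 ± 0.46 without passing (adjusted p 0.228). At 1 h the pair of probe sets had opposite signs, 0.51 and -0.99.

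The two-pore channel gene Kcnk1 was the 1 gene that passed with a rise at 6 h. It encodes a weakly rectifying leak channel. Its signals were 234, 282 and 268 in PBS and 322, 424 and 359 after kainate. All kainate arrays were above all PBS arrays, and the mean went from 261 ± 24.8 to 368 ± 51.5 (SD), 1.40-fold (log2 0.49 ± 0.13, adjusted p 0.0265). At 1, 24 and 72 h the change was 0.02, 0.06 and 0.04. At 240 h the groups again did not overlap, at 231 ± 8.83 and 277 ± 32.9, with a change of 0.25 that did not pass (adjusted p 0.438). The change of the effect from 6 to 24 h, -0.43, did not pass (adjusted p 0.19), so the rise was not shown to belong to 6 h. It was lost without PBS replicate 1 or 3 or kainate replicate 2 or 3 (adjusted p 0.0656 to 0.207). Kcnk5, an acid-sensitive two-pore channel, had the largest change of any member at 72 h, 1.81, from 8.96, 16.6 and 9.28 in PBS to 47.3, 43.2 and 42.0 after kainate. The groups did not overlap, 2 PBS arrays were under the floor and the change did not pass (adjusted p 0.447). The same probe set ranged from 5.63 to 56.4 among the PBS arrays of 1 h, and 9 of its 30 arrays were at the floor. Its change went both ways over the 5 times, at -0.73, -1.19, 0.79, 1.81 and -0.31. The values at 6 and 24 h were the largest fall and the largest rise of the 39 tested genes at those times. Neither passed (adjusted p 0.372 and 0.432).

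Kcnma1 encodes the pore subunit of the large-conductance calcium-activated channel, which shortens action potentials. Its probe set with the highest mean changed by -0.09, -0.05, -0.20, 0.13 and -0.61 and passed at no time. A second probe set behaved otherwise at 24 h, with 104, 66.3 and 72.7 in PBS and 23.6, 27.4 and 19.3 after kainate. There the groups did not overlap and the signal fell 3.43-fold (log2 -1.78 ± 0.52, adjusted p 0.0267). That probe set was at 0.92 at 6 h, and its change from 6 to 24 h of -2.70 passed (adjusted p 0.0283). Which transcripts each probe set reports was not tested. The beta subunit gene Kcnmb1 and the small-conductance channel gene Kcnn1 had changes of -0.37 to 0.43 over the 5 times, and none passed. The KCNE subunit gene Kcne1 had the largest rise of the members at 240 h, 1.25, from 33.1 ± 15.3 to 74.3 ± 23.3 (SD) without overlap and without passing (adjusted p 0.414). At 1 h it had the largest rise too, 0.66, with overlapping groups.

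**Figure D3:**
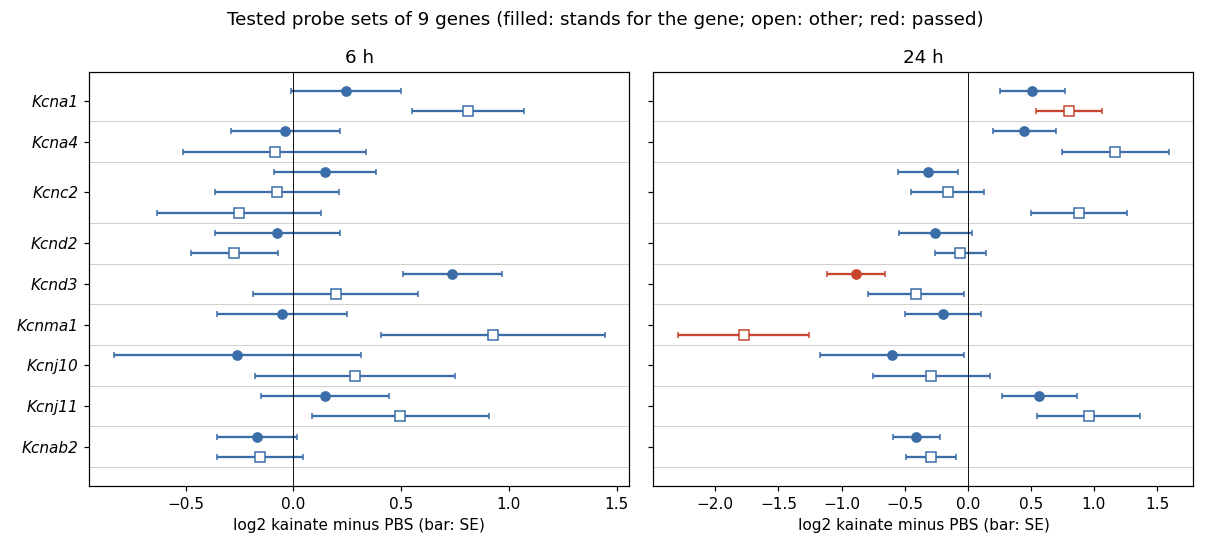
Change at 6 and 24 h (horizontal axis, log2 kainate minus PBS, bars SE) of all tested probe sets of 9 potassium channel genes. Filled circles stand for the gene, open squares are its other probe sets and red marks those that passed; Kcna1 and Kcnma1 at 24 h show an open square that passed beside a circle that did not.

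Of the 39 genes 15 had more than 1 tested probe set. All of a gene's probe sets had the same sign of change in 8, 9, 10, 8 and 8 of these 15 at 1, 6, 24, 72 and 240 h. The genes that passed at 24 h other than Kcnd3, and Kcnk1 at 6 h, had a single tested probe set.

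Seen as a family, the median of the 39 genes lay below that of all tested probe sets at all 5 times, by the most at 1 and 24 h. The medians at 1, 6, 24, 72 and 240 h were -0.29, -0.17, -0.24, -0.12 and 0.02, beside -0.04, -0.11, -0.05, -0.04 and 0.03 over all 6303. At 240 h they were almost the same, 0.0239 and 0.0268. Below 0 were 29 of 39 at 1 h (74.4%), against 55.3% of all, and 27 of 39 at 24 h (69.2%), against 54.1%. At 6 h, 24 of 39 were below 0 (61.5%), against 63.0% of all, at 72 h 25 (64.1%) against 55.1%, and at 240 h 17 (43.6%) against 46.6%. Groups without overlap were found for 5, 10, 8, 7 and 9 of the 39 genes at 1, 6, 24, 72 and 240 h, and for 10.3%, 27.7%, 28.1%, 22.1% and 14.5% of all tested probe sets. Under quantile normalization the medians of the 39 genes were -0.23, -0.07 and -0.18 at 1, 6 and 24 h. Those of all tested probe sets were then -0.02, -0.06 and -0.02, so that the medians at 6 h nearly met. These counts describe the list; the genes are not replicates of each other.

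**Figure D4:**
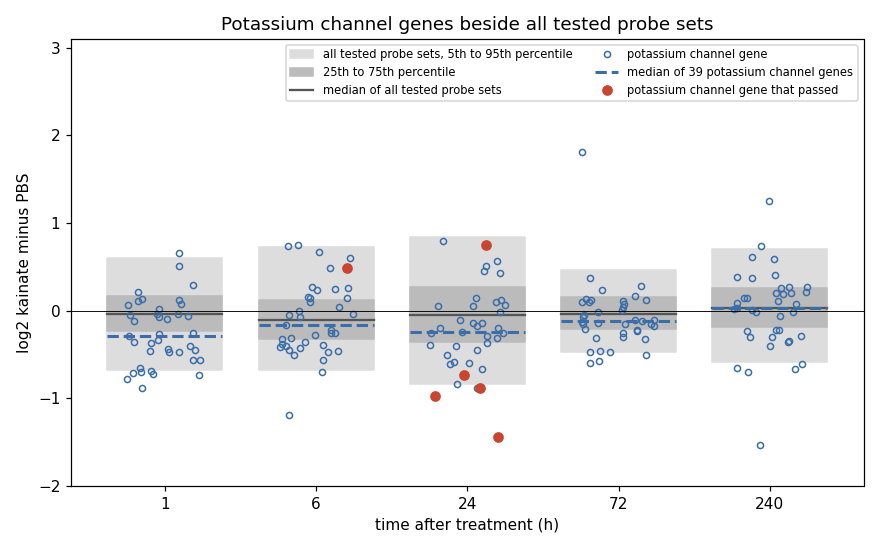
Change (log2 kainate minus PBS) of each of the 39 tested potassium channel genes (points, red where passed) at the 5 times, with their median (dashed), beside the 5th to 95th and 25th to 75th percentile bands and the median of all tested probe sets (grey). The dashed median lies below the grey one at all 5 times, barely at 240 h and by the most at 1 and 24 h. At 1 and 24 h it is at -0.29 and -0.24.

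By subfamily, the voltage-gated pore subunits (22 tested) had a median of -0.37 at 1 h, with 18 of 22 below 0 (55.3% of all tested probe sets were) and none passing, and of -0.25 at 24 h, with 3 lower and none higher (6.3% and 5.03% of all). The 3 Kv3 genes stood at a median of -0.70 at 1 h and -0.32 at 24 h. Inward rectifiers had a median of -0.35 at 1 h. In the EAG, ERG and ELK group 7 of 8 genes were below 0 at 6 h (median -0.40) and 7 of 8 above 0 at 240 h (median 0.27). At neither time did one of them pass. Of all tested probe sets 63.0% were below 0 at 6 h and 46.6% at 240 h. The second probe set of Kcnh2 had the opposite signs, 0.01 at 6 h and -0.19 at 240 h. That of Kcnh3 had the same signs, -0.43 and 0.98.

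The 15 genes that were not tested exceeded the filter signal of 35.2 on fewer than 3 arrays. Their highest signals on any array ranged from 6.77 for Kcnq1 and 7.91 for Kcnj2 to 44.6 for Kcnj5 and 46.9 for Kcnab3. The others were Kcna2, Kcna3, Kcnb2, Kcnj6, Kcnj9, Kcnj13, Kcnj14, Kcnk3, Kcnn3, Kcns1 and Kcnt1. Among them Kcna2, Kcnj6, Kcnj9 and Kcnk3 are known to be expressed in hippocampal neurons, so that a low signal here describes these probes and gives no statement on the transcript.

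Genes that work with potassium channels were read from fixed lists. Of 13 scaffold and auxiliary partners of Kv channels 8 were matched and 7 tested, and none passed at any time; at 24 h Amigo1, a Kv2 partner, was at -0.65 (adjusted p 0.059). Of the sulfonylurea receptors and calmodulins 3 of 6 were tested and none passed; Abcc8, the partner of Kcnj11 in neurons, was at -1.14 at 24 h (adjusted p 0.0732). The 4 hyperpolarization-activated channel genes had no matched probe set. Of 14 sodium-potassium pump and potassium-chloride transport genes 8 were tested, and 3 passed, all at 24 h, when 11.3% of all tested probe sets did. Slc12a2, which loads cells with chloride, rose 1.42-fold, from 137 ± 10.8 to 195 ± 16.9 (adjusted p 0.041). Slc12a4, a potassium-chloride exporter, rose 1.87-fold (adjusted p 0.0205), and Atp1b1, a beta subunit of the pump, fell 1.32-fold, from 5594 ± 140 to 4290 ± 770 (SD, adjusted p 0.0276).

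Markers of cell types moved at the same time as the potassium channel genes that fell. At 24 h 7 of 16 tested neuron markers were lower (Nefl, Nefh, Gap43, Camk2a, Nrgn, Uchl1 and Ppp3ca) and 0 higher, with a median of -0.41; for these and the other marker lists at 24 h the shares of all tested probe sets were 6.3% lower and 5.03% higher. Their summed signal ranged from 21933 to 22709 in PBS and from 17649 to 18678 after kainate. Of 13 interneuron markers Npy and Tac1 were higher and Pvalb, which marks fast-spiking cells, was lower at -0.55 (adjusted p 0.0452). Microglia and macrophage markers had 3 of 9 higher (summed signal 556 to 598 in PBS and 1156 to 1421 after kainate), reactive astrocyte genes 4 of 7 higher (978 to 1031 and 2437 to 2817), and astrocyte markers 1 of 10 higher and 2 lower (8494 to 8954 and 7594 to 8519). Oligodendrocyte markers had 0 of 8 passing, and endothelial and pericyte markers 1 of 9 higher and 1 lower. All 16 matched neuron markers were bright enough to be tested; the matched markers that were not are Lcn2 and C3, Itgam and Csf1r, and Des. At 6 h, when Kcnk1 rose, no neuron, astrocyte or oligodendrocyte marker passed (median 0.03 for neuron markers). Higher at 6 h were Sst, Npy and Tac1 of the interneuron list, Cd44 and Timp1 of the reactive astrocyte genes (summed signal 1072 to 1177 in PBS and 1275 to 1480 after kainate), C1qb and Lgals3 of the microglia and macrophage markers (633 to 694 and 683 to 835), and the glucose transporter gene Slc2a1 of the endothelial list (2.42-fold), with 3.24% of all tested probe sets higher. At 1, 72 and 240 h no marker of these lists passed. The part of these shifts in the rise of Kcnk1 at 6 h and in the changes of Kcnq3, Kcnd3, Kcnh1, Kcnj15 and Kcnab1 at 24 h was not tested.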

How the data were processed

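Total RNA of rat hippocampus was measured on 30 Affymetrix arrays. As deposited by the authors, the values are linear intensity values, 1 for each probe set of each array; how they were computed is not stated in the labels used here. Arrays were scaled to a common trimmed mean (2% off each end). A floor at the 20th percentile (signal 10.95) preceded the log2 step. Testing required a signal over the 40th percentile (35.2) on 3 or more arrays, and 59 controls were left out. Arrays have no read depth, so their number limits the precision.

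Names came from the platform annotation: 7006 probe sets with 1 gene symbol, 308 with several and 1426 with none. The fit used limma 3.58.1 in R 4.3.3, with 10 group means, an intensity trend, 20 residual and 7.27 prior degrees of freedom and Benjamini-Hochberg adjustment over 6303 probe sets at 0.05. Alternatives changed the normalization, pseudocount, filter, arrays fitted, replicate block, array weights, trend, probe set choice and arrays left out. Genes named are those that passed, the 2 largest rises and falls at each time, and 10 genes listed by known role. Kcnip3, on that list, is not analysed here. Kcna1 and Kcnma1 also have their other probe sets named because these passed. Amigo1, Abcc8, Kcnj11 and the start-site motifs were singled out after their values were seen. Members, lists and alternatives were chosen with earlier results of these data known. The procedure was tested on simulated data. Python 3.11.15 with pandas 2.3.3 made the tables, and matplotlib 3.10.9 the figures.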

Additional observations from a re-analysis of the deposited data

Results flagged for a closer look

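For several genes the kainate effect differed between times by a test of the difference itself. The effect at 24 h minus that at 6 h was 1.21 on the log2 scale for Kcnab1 (limma adjusted p 0.0266), -1.63 for Kcnd3 (adjusted p 0.0022) and -1.48 for Kcnh1 (adjusted p 0.00537). On the second probe set of Kcnma1 it was -2.70 (adjusted p 0.0283), and on the second probe set of Kcna1 the effect at 240 h minus that at 24 h was -1.39 (adjusted p 0.0243). The F test over the 5 times gave adjusted p 0.0116 for Kcnd3, 0.0379 for Kcnh1 and 0.0215 for the second probe set of Kcna1. Kcnh1 passed it in 20 of 30 fits with 1 array left out. Kcnd3 did not pass it with the mean of its probe sets (adjusted p 0.155). The arrays of 6 and 24 h lie in different sets of arrays. Time and set therefore cannot be told apart in the differences between 6 and 24 h, and the F test includes such differences. With 3 arrays per group, single arrays were not tested as outliers.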

How the results depend on the processing

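Counts of potassium channel genes that passed moved with the arrays and weights used. At 6 h (1 gene) quantile normalization gave 2, only the arrays of that time 0, only the arrays of 6 and 72 h 4, and array weights 5. At 24 h (5 genes) only the arrays of that time gave 1 (Kcnj15), only those of 1, 24 and 240 h 1 (Kcnq3), and array weights 3; no filter gave 5 with Kcnn3, higher, in place of Kcnj15, no intensity trend 4 without Kcnj15, quantile normalization 4 without Kcnh1, and the mean of probe sets 5 with Kcnma1 in place of Kcnd3. At 72 h (0) array weights gave 1 (Kcnk5). For an effect at any time (4) no filter gave 2, the replicate block 2, array weights 8, no intensity trend 1 and the mean of a gene's probe sets 2. For the mean effect (2) no filter added Kcnk1, array weights added Kcnc1, and the mean of probe sets gave Kcnab2 in place of Kcnc2. For a difference between times (2) no filter gave 1, array weights 5 and the mean of probe sets 1. For the change from 24 to 240 h (0) quantile normalization, log2(signal + 16) and the filter on 15 arrays each gave 1 (Kcnab1), and the mean of probe sets 2 (Kcna1 and Kcnab1).

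With each array left out in turn the counts ranged from 0 to 2 at 1 h (2 without kainate replicate 3, Kcnc1 and Kcnj1), 0 to 2 at 6 h, 1 to 5 at 24 h, 0 to 0 at 72 and 240 h, 1 to 5 for any time, 1 to 4 for a difference between times, 2 to 3 for the mean effect, 2 to 4 from 6 to 24 h and 0 to 1 from 24 to 240 h. At 24 h 1 gene was left without PBS replicate 1 (Kcnq3), 2 without PBS replicate 2 (Kcnd3 and Kcnh1), 2 without PBS replicate 3 (Kcnab1 and Kcnd3), 3 without kainate replicate 1 and 2 without kainate replicate 3 (Kcnj8 and Kcnq3). At 6 h 2 passed without PBS replicate 1 (Kcnd3 and Kcnh1) and 0 without PBS replicate 3 or kainate replicate 2 or 3. Kcne1 at 72 h ranged from -0.16 (reversed, without PBS replicate 3) to 0.683 with arrays left out, and Kcnj10 at 1 h reversed to -0.24 with the mean of its probe sets. The causes were not tested.

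For kainate and PBS arrays of the same time and replicate number, the correlation of deviations from the group means ran from -0.0731 to 0.168. Of these 15 pairs 3 were over 0.1. Weak correlations cannot show whether a replicate number marks a shared source, and the labels do not define it. With the replicate number as a block, Kcnc2 (adjusted p 0.0522) and Kcnh1 (0.0568) no longer passed for an effect at any time, and the counts at the 5 times stayed 0, 1, 5, 0 and 0.

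Over all tested probe sets 69, 248, 714, 3 and 3 passed at the 5 times. Array weights gave 633 at 6 h and 153 at 72 h, the arrays of the same set 43 at 1 h, 481 at 6 h and 343 at 24 h, the arrays of 1 time 31 at 1 h, 256 at 24 h and 0 at 72 and 240 h, and no filter 10 at 72 h and 13 at 240 h.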
